A study of Drosophila melanogaster with 5 samples.

Results

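In FlyBase, the gene database of Drosophila, a gene without a proper name is known by a computed gene (CG) number, and many transcripts of the Drosophila melanogaster testis belong to such genes. The 150 CG genes described here are those whose mRNA was most abundant on βNACtes-precipitated testis ribosomes relative to total testis ribosomes. They were taken from a deposited table of 12847 genes, of which 7033 are listed under a CG number and 1835 of these had at least 20 FPKM (fragments per kilobase of transcript, scaled to library size) in both groups. Within these 1835 genes the 150 with the highest log2 ratio of the βNACtes IP over total ribosomes were kept, with 0.1 added to each value, and 2 further CG genes were left out beforehand. The genes were thus chosen by their values in both groups and by the ratio of these values, which are given as a description, with no test.

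The ribosomes came from testes of adult males of the laboratory strain Batumi kept at 25C. The age is given in the labels as 1-2, without a unit. In each preparation 1000 frozen testes were homogenized in the presence of cycloheximide, which halts elongating ribosomes, and ribosomes were pelleted. One part of the ribosome extract was immunoprecipitated with antibodies to βNACtes (3 libraries), and another part was taken as total ribosomes (2 libraries). No precipitation with an unrelated antibody was analysed here, and the antibodies do not separate the closely related βNACtes paralogs. The authors deposited 1 value per gene and group. No spread between replicates, no depth and no test between libraries can therefore be given for any value. How the value was formed from the libraries is not known here. For CG42669 it was 374.15 FPKM in the βNACtes IP, against 29.645 FPKM in total ribosomes. Among the chosen genes, values of total ribosomes go to 3 decimals and those of the IP to 2. The IP values therefore cannot be taken as unrounded means of 3 libraries.

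The nascent polypeptide associated complex (NAC) is a heterodimer of an α- and a β-subunit that binds ribosomes near the exit of the peptide tunnel and contacts nascent chains. Flies have an ubiquitous NAC and germline paralogs, and βNACtes is the germline β-subunit, which is strongly expressed in spermatocytes. In the testis, spermatocytes transcribe most genes needed after meiosis, and many of these mRNAs are stored and translated only later in spermatids. In bulk extracts, as used here, more cells of one type and more RNA per cell cannot be told apart.

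The 150 genes had 92.8 to 9179 FPKM in the βNACtes IP with a median of 239.9 FPKM, against 20.0 to 1379.95 FPKM in total ribosomes with a median of 40.4 FPKM. The ratio of the βNACtes IP over total ribosomes ranged from 4.40 to 12.6 with a median of 5.62. On the log2 scale this ratio ranged from 2.14 to 3.65. The median log2 ratio over the 9793 genes with a mean of both columns of at least 1 FPKM was 0.73, and ratios below are given relative to it. On this relative scale the 150 genes had 1.41 to 2.92 with a median of 1.76. All 150 were at 1 or more, the limit used to call a gene higher, as were 26.4% of all genes tested, a share from which nothing is read because the rule used the same ratio. Among the 1835 CG genes that could have been chosen 15.5% were called higher and 30.1% lower. The other 1685 of them had a median of 90.2 FPKM in the βNACtes IP, against 73.1 FPKM in total ribosomes, and a median relative log2 ratio of −0.33.

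**Figure D1:**
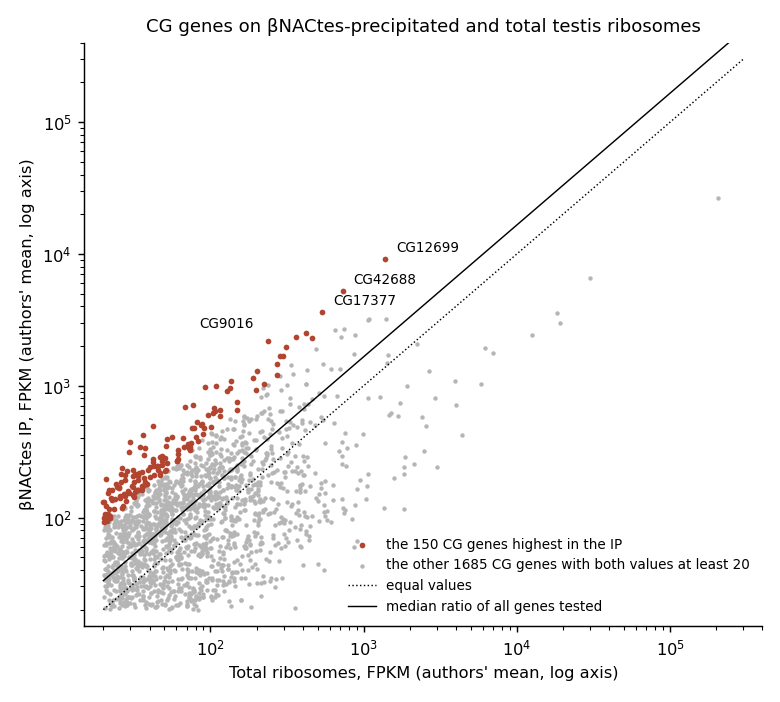
Values of the 1835 CG genes with at least 20 FPKM in both groups, with the βNACtes IP on the y axis and total ribosomes on the x axis, both in FPKM on log axes. Each point is 1 gene with the authors' value per group. Red points are the 150 genes with the highest ratio. They range up to 9179 FPKM in the IP for CG12699, far above the line of the median ratio.

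The selection had a soft edge. The last gene inside was CG8006 with 93.3 FPKM in the βNACtes IP, against 21.2 FPKM in total ribosomes, and the first outside was CG2871 with 90.8 FPKM in the βNACtes IP, against 20.6 FPKM in total ribosomes. Their log2 ratios were 2.14 and 2.13. CG10869 and CG2291 stood just inside with log2 ratios of 2.14 each, and CG15147 and CG11068 just outside with 2.13 each. In all, 27 of the 150 genes lay within 0.1 above the last one, and 31 CG genes lay within 0.1 below it. The limit of 20 FPKM set the list as well. A further 1166 CG genes had a ratio at least as high as CG8006 but less than 20 FPKM in total ribosomes, 429 of them listed at 0 there and 314 with at least 20 FPKM in the βNACtes IP.

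In order of abundance these genes stood much higher among the mRNAs of βNACtes ribosomes than of total ribosomes. Together they made up 9.85% of the summed FPKM of the βNACtes IP, against 0.896% in total ribosomes. Of the 150 genes, 20 were among the 100 highest values of the βNACtes IP and 0 among the 100 highest of total ribosomes. Among the 1000 highest values there were 121 in the βNACtes IP, against 21 in total ribosomes. The median rank was 590.5 in the βNACtes IP, against 2313.5 in total ribosomes. These shares follow the rule, which favours a high IP value. The gap in summed FPKM was also widened by the column sums, 802728 for the βNACtes IP, against 1435535 for total ribosomes.

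The gene with the highest ratio was CG42669, which the current annotation lists as Svil, the fly supervillin, an actin-binding protein of the villin and gelsolin superfamily. It had 374 FPKM in the βNACtes IP, against 29.6 FPKM in total ribosomes, which is 12.6 times. The same FlyBase identifier stands in the table under CG33232 with 39.95 FPKM in the βNACtes IP, against 10.9 FPKM in total ribosomes. A further row of it, CG13800, had 0.42 FPKM in the βNACtes IP, against 0.07 FPKM in total ribosomes. The relative log2 ratio was 2.92 for CG42669 and 1.14 for CG33232, so these rows of 1 present-day gene did not have the same ratio. That of CG13800 was 0.88, but its values are below 1 FPKM, where the added 0.1 lowers the ratio, and nothing is read from it. Svil extends from 2377655 to 2499226 on chromosome arm 3L of BDGP6, with 19 exons in the transcript that the annotation marks as canonical.

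Directly after Svil came CG42855, CG33284 and CG42758, little described genes with short proteins. CG42855 on arm 2R, annotated with a protein of 76 residues, had 494 FPKM in the βNACtes IP, against 42.0 FPKM in total ribosomes. CG33284 on arm 3L, which has a single exon, had 421 FPKM in the βNACtes IP, against 36.2 FPKM in total ribosomes. CG42758 on the same arm had 316 FPKM in the βNACtes IP, against 29.6 FPKM in total ribosomes. The level in the βNACtes IP was thus 10.6 to 11.7 times that in total ribosomes for these genes. The next was CG4068, an X-linked gene now listed as CG44774, with 981 FPKM in the βNACtes IP, against 92.6 FPKM in total ribosomes. CG5538, now named vrs, had 694 FPKM in the βNACtes IP, against 68.3 FPKM in total ribosomes.

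Another group of the highest ratios combined a ratio of 8.14 to 9.81 with very different levels. CG9016, which encodes a protein of 85 residues, had 2182 FPKM in the βNACtes IP, against 238 FPKM in total ribosomes. CG14995 had 1002 FPKM in the βNACtes IP, against 108 FPKM in total ribosomes. CG33791 had 712 FPKM in the βNACtes IP, against 76.8 FPKM in total ribosomes. Their levels were above those of the remaining genes of this group, none of which has a name beyond its number. CG42393 had 341 FPKM in the βNACtes IP, against 34.7 FPKM in total ribosomes, and CG5614 had 334 FPKM in the βNACtes IP, against 37.2 FPKM in total ribosomes. CG30461 had 300.2 FPKM in the βNACtes IP, against 36.8 FPKM in total ribosomes, and CG31287 had 238 FPKM in the βNACtes IP, against 26.4 FPKM in total ribosomes. CG10734 had 215 FPKM in the βNACtes IP, against 26.0 FPKM in total ribosomes, and CG8851 had 195 FPKM in the βNACtes IP, against 20.9 FPKM in total ribosomes. In CG8851 the value of total ribosomes was close to the limit of 20 FPKM that the rule set. These 15 genes were the only ones of the 150 with a log2 ratio of at least 3.

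**Figure D2:**
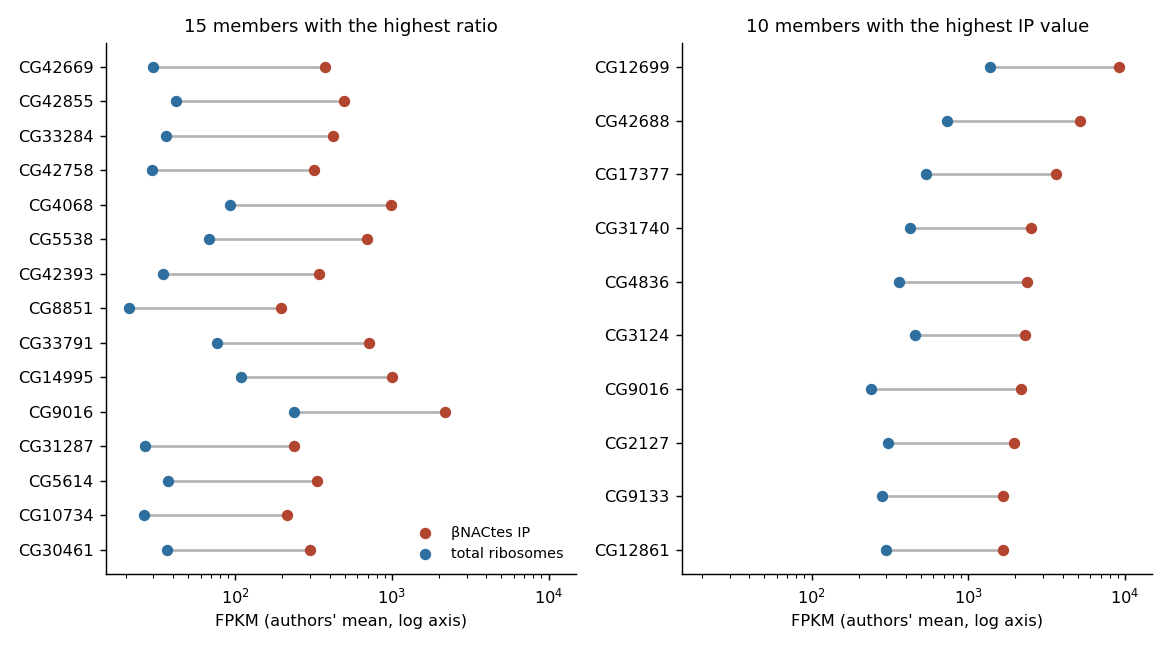
The authors' values in the βNACtes IP (red) and total ribosomes (blue), in FPKM on a log axis. Shown are the 15 genes with the highest ratio (left) and the 10 with the highest βNACtes IP value (right). Each line joins both values of 1 gene, and the values of total ribosomes span 20.9 to 238 FPKM on the left and 238 to 1379.95 FPKM on the right.

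By level in the βNACtes IP, CG12699 stood first. This 2R gene, annotated with 2 exons and a protein of 145 residues, had 9179 FPKM in the βNACtes IP, against 1379.95 FPKM in total ribosomes, and ranked 5 among all genes of the table in the βNACtes IP, against 145 in total ribosomes. CG42688 on arm 2L, whose protein has only 50 residues, had 5195 FPKM in the βNACtes IP, against 728 FPKM in total ribosomes. CG17377, also on 2L, had 3631 FPKM in the βNACtes IP, against 538 FPKM in total ribosomes. All of these ranked among the 12 most abundant mRNAs of the βNACtes IP, whereas in total ribosomes the highest of their ranks was 145. CG31740 with a protein of 61 residues had 2519 FPKM in the βNACtes IP, against 422 FPKM in total ribosomes. CG4836, in contrast, encodes 1224 residues and had 2356 FPKM in the βNACtes IP, against 359 FPKM in total ribosomes. CG3124 had 2299 FPKM in the βNACtes IP, against 457 FPKM in total ribosomes. High levels were thus found for mRNAs of small as well as large proteins. The list of the 10 highest was completed by CG9016, CG2127, CG9133 and CG12861, the last 3 of which had 1669 to 1964 FPKM in the βNACtes IP, against 283 to 309 FPKM in total ribosomes. Of the 150 genes, 17 had at least 1000 FPKM in the βNACtes IP and 28 at least 100 FPKM in total ribosomes, while 46 were below 30 FPKM in total ribosomes.

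Since the table was made, part of these genes have received names. In the annotation used here (Ensembl release 115 of BDGP6, with RefSeq Release 6 for 4 genes that did not match by identifier), 121 of the 150 keep their CG number and 3 carry another one. Another 25 have a symbol that is no CG number, 1 of which is a noncoding RNA, and 1 gene, CG6279, had no single match. Among the 149 matched genes 16.8% thus have a symbol other than a CG number, against 23.8% of the other CG genes that could have been chosen. The named genes had a median of 219 FPKM in the βNACtes IP, against 40.6 FPKM in total ribosomes, and those with a CG number had a median of 239.9 FPKM in the βNACtes IP, against 39.8 FPKM in total ribosomes.

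Several of the named genes are known from spermatogenesis. The gene saturn (CG32141), which is needed for male fertility, had 193 FPKM in the βNACtes IP, against 27.6 FPKM in total ribosomes, with a relative log2 ratio of 2.07. The product of fest (CG9975) acts with the RNA-binding protein Rbp4 to hold back translation of cyclin B in spermatocytes, and its mRNA had 531 FPKM in the βNACtes IP, against 82.1 FPKM in total ribosomes. Duba (CG6091) encodes a deubiquitinase required for the individualization of spermatids, and had 194 FPKM in the βNACtes IP, against 33.6 FPKM in total ribosomes. On the relative log2 scale, fest was at 1.96 and Duba at 1.80. SCCRO4 (CG6597), which is not counted with these genes, is of a family that promotes the attachment of the ubiquitin-like Nedd8 to cullins. Its mRNA had 142 FPKM in the βNACtes IP, against 25.6 FPKM in total ribosomes.

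A further group acts on RNA and translation. The mRNA of eIF2A (CG7414), an initiation factor that can bring the initiator tRNA to ribosomes in other eukaryotes, had 484 FPKM in the βNACtes IP, against 100.3 FPKM in total ribosomes. Rexo5 (CG8368), an RNA exonuclease that trims small nucleolar and ribosomal RNA, had 248 FPKM in the βNACtes IP, against 42.7 FPKM in total ribosomes. Rhau (CG9323), a helicase that unwinds G-quadruplexes, had 116 FPKM in the βNACtes IP, against 23.5 FPKM in total ribosomes. Of these RNA-related genes Rexo5 had the highest relative log2 ratio with 1.81. CNBP (CG3800), a zinc finger protein that binds nucleic acids, had 162 FPKM in the βNACtes IP, against 33.4 FPKM in total ribosomes, and the longest 3′UTR of the 150 genes with 1446 bp. Elp5 (CG2034), a subunit of the Elongator complex that modifies wobble uridines of tRNA, had 162 FPKM in the βNACtes IP, against 35.9 FPKM in total ribosomes.

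Enzymes and mitochondrial proteins formed another part of the named genes. Gpdh3 (CG43343) belongs to the cytosolic glycerol-3-phosphate dehydrogenases and had 209 FPKM in the βNACtes IP, against 27.8 FPKM in total ribosomes. Gpo3 (CG7311) belongs to the mitochondrial enzymes that oxidize the same metabolite and had 276 FPKM in the βNACtes IP, against 61.3 FPKM in total ribosomes. Ald2 (CG5432), an aldolase of glycolysis, had 116 FPKM in the βNACtes IP, against 21.7 FPKM in total ribosomes. Both glycerol-3-phosphate enzymes and the aldolase are paralogs of better studied genes. YME1L (CG3499), a protease of the inner mitochondrial membrane, had 174 FPKM in the βNACtes IP, against 36.1 FPKM in total ribosomes. Sfxn1-3 (CG11739), of the sideroflexins that carry amino acids across this membrane, had 179 FPKM in the βNACtes IP, against 37.8 FPKM in total ribosomes. In microtubule biology, TTLL4B (CG3964) had 479 FPKM in the βNACtes IP, against 78.2 FPKM in total ribosomes. TTLL6B (CG5987) had 203 FPKM in the βNACtes IP, against 40.6 FPKM in total ribosomes. Both belong to the tubulin tyrosine ligase-like enzymes, which add amino acids such as glutamate or glycine to tubulin tails. The β-tubulin gene betaTub65B (CG32396) had 162 FPKM in the βNACtes IP, against 32.9 FPKM in total ribosomes.

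Among the remaining named genes, Bfc (CG9129) had 504 FPKM in the βNACtes IP, against 86.7 FPKM in total ribosomes, and HSPBAP1 (CG43320) had 345 FPKM in the βNACtes IP, against 74.0 FPKM in total ribosomes. The genes dbf (CG17098), shps (CG13611) and nis (CG10869) had relative log2 ratios of 2.13, 1.49 and 1.41. CG32652 is annotated at present as the long noncoding RNA lncRNA:CR32652, with no protein. It had 1456 FPKM in the βNACtes IP, against 272 FPKM in total ribosomes, and was thus among the 17 genes above 1000 FPKM. The annotation as used here holds no gene functions, and those told above for named genes are background. None is given here for the 121 genes that keep their number.

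For 8 gene families the other genes of the family were drawn from the same table, chosen after the values of the 150 genes were seen. Of 11 tubulin tyrosine ligase-like genes listed, 10 passed the mean of 1 FPKM, and TTLL4B and TTLL6B among them are higher by the rule. Of the other 8, 6 were called higher in the βNACtes IP and 2 lower, with a median relative log2 ratio of 1.64, beside 26.4% called higher and 29.2% called lower among all genes tested. With the columns scaled to the same sum (TPM), where 62.1% of all genes tested were called higher and 8.75% lower, 6 of these 8 were higher and 0 lower. Ratios in TPM are not centred and are higher for every gene than the relative ratios, so a turn in sign there follows from the scaling. TTLL3B had 197 FPKM in the βNACtes IP, against 21.1 FPKM in total ribosomes, but is not listed under a CG number. TTLL4A had 112 FPKM in the βNACtes IP, against 13.4 FPKM in total ribosomes, too low in total ribosomes for the rule. TTLL12 had 12.7 FPKM in the βNACtes IP, against 30.9 FPKM in total ribosomes, and was on the other side of the median. TTLL15 was called lower at 1.74 FPKM in the βNACtes IP, against 2.18 FPKM in total ribosomes, a ratio that turned in sign in TPM.

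In the β-tubulin, Gpdh, Gpo and aldolase families the gene among the 150 had a higher ratio than its relatives, by varying amounts. Whereas betaTub65B had a relative log2 ratio of 1.57, the testis β-tubulin betaTub85D had 1245 FPKM in the βNACtes IP, against 1693 FPKM in total ribosomes, a relative log2 ratio of −1.17 that became 0.39 in TPM. The ubiquitous betaTub56D had 270.25 FPKM in the βNACtes IP, against 561 FPKM in total ribosomes, and betaTub97EF had 11.3 FPKM in the βNACtes IP, against 42.4 FPKM in total ribosomes. In absolute level betaTub65B was therefore well below betaTub85D in both groups. Gpdh3 at 2.18 differed from Gpdh1 at −0.91 and Gpdh2 at −1.95 on the relative log2 scale, with 0.65 for Gpdh1 in TPM. Gpo3 at 1.44 was above Gpo2 at 0.16 and Gpo1 at −1.75. In TPM Gpo3 was at 3.01, Gpo2 at 1.73 and Gpo1 at −0.19, so Gpo2 too was past the limit there. Ald2 at 1.68 was above Ald1 at 0.87, whose level was higher in both groups with 417 FPKM in the βNACtes IP, against 137 FPKM in total ribosomes. In TPM both aldolases were past the limit, Ald2 at 3.24 and Ald1 at 2.44. Since each family was looked up for a gene with a high ratio, the difference from its relatives is a description only.

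The 5 Elongator subunits compared were not uniform either. Elp5 had a relative log2 ratio of 1.44, past the limit by the rule. Elp4 was at 0.25, and at 1.81 in TPM, where it too was past the limit, and Elp6, Elp2 and Elp3 were at −0.84, −0.94 and −1.32 and turned in sign in TPM. Elp4 had 138 FPKM in the βNACtes IP, against 70.1 FPKM in total ribosomes, whereas Elp3 had only 9.07 FPKM in the βNACtes IP, against 13.7 FPKM in total ribosomes. In the SCCRO family, SCCRO3 had 36.0 FPKM in the βNACtes IP, against 4.90 FPKM in total ribosomes, a relative log2 ratio of 2.12 that was above the 1.74 of SCCRO4, and SCCRO was at 0.40. Sfxn2 had only 1.47 FPKM in the βNACtes IP, against 2.49 FPKM in total ribosomes, with a ratio below the median of all genes that was above equality in TPM.

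**Figure D3:**
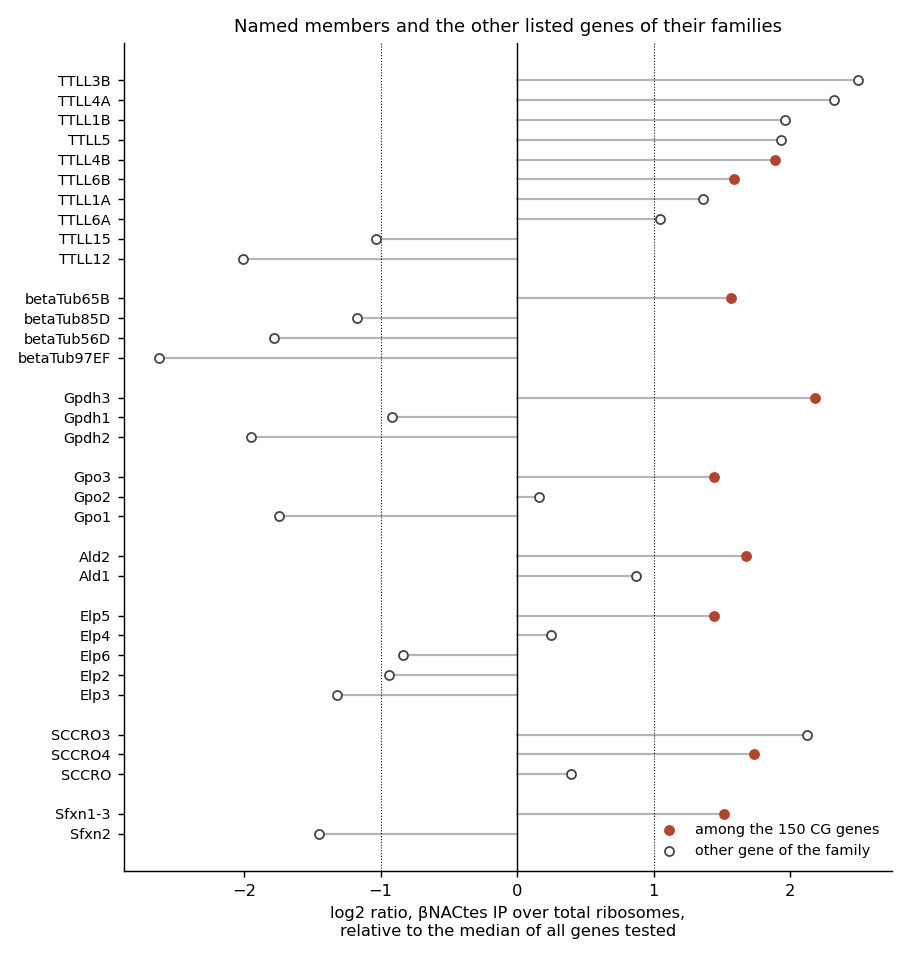
Relative log2 ratios of the βNACtes IP over total ribosomes (x axis, 0 is the median of all genes tested) for genes of 8 families, 1 gene per row. Filled points are the genes among the 150, open points their relatives, dotted lines mark the limits of −1 and 1, and the filled points lie between 1.44 and 2.18, while the relatives range from −2.63 to 2.49.

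Gene structure was not used by the rule, and the genes were therefore compared in their annotation with the other CG genes that could have been chosen. Exonic length joins the exons of all transcripts of a gene. Exon number, protein length and UTR lengths are those of the transcript that the annotation marks as canonical, so these lengths do not add up to the exonic length. Of 149 annotated genes, the median exonic length was 1532 bp, against 1100 bp in the other 1683. The protein had a median of 325.5 residues, against 253 residues. The 5′UTR had a median of 141.5 bp, against 100.0 bp, and the 3′UTR 183.5 bp, against 119 bp. The genes with a high ratio were thus longer in the median of each of these measures than the other CG genes. Compared with all 9727 annotated genes tested, whose medians were 1664 bp of exons, 389 residues and 191 bp of 3′UTR, they were shorter, whereas the median 5′UTR of all genes tested was 122 bp. Since genes are not replicates, no test was made of these differences.

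When the CG genes were divided into 4 equal groups by exonic length, the shortest held 14 of the 150 genes and the longest 69, or 3.06% and 15.1% of each group. By 5′UTR length, in order of increasing length, the groups held 16, 23, 45 and 64 of the 150 genes, and by 3′UTR length 16, 29, 45 and 58. By protein length the first 3 groups held 28, 27 and 36 genes and the fourth 57. Over the eligible CG genes as a whole, Spearman's rho between relative log2 ratio and length was 0.222 for exonic length (n = 1832), 0.263 for the 5′UTR (n = 1823), 0.206 for the 3′UTR (n = 1823) and 0.159 for the protein (n = 1823). These are correlations across genes that share the same libraries, and they were weak. Within the 150 genes rho with exonic length was 0.086 (n = 149). By level in total ribosomes the order was reversed, since the lowest group held 71 of the 150 genes and the highest 18, and this level is the denominator of the ratio. Length and level were not separated here, and the part of either in the ratio was not tested.

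**Figure D4:**
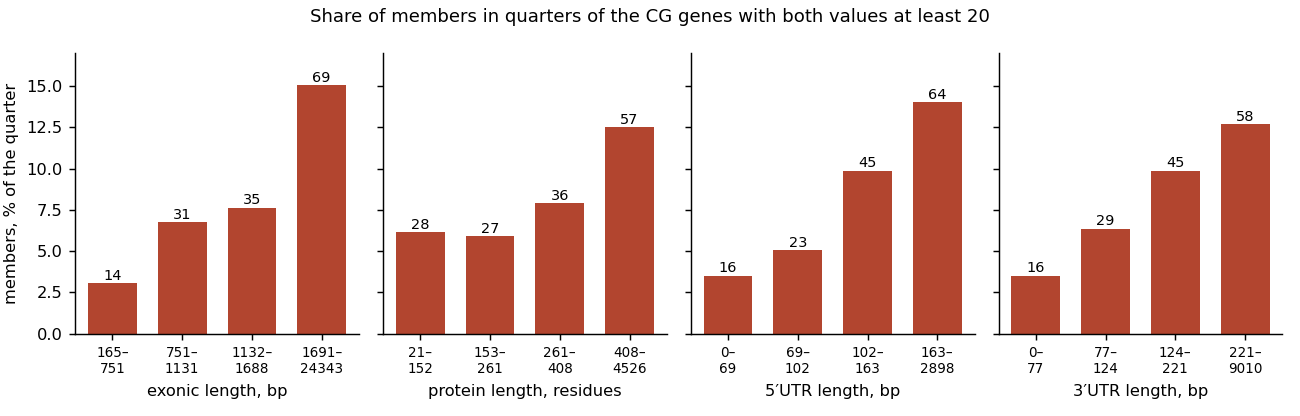
Share of the 150 genes (y axis, percent of the genes in a group) in each of 4 equal groups of the CG genes with at least 20 FPKM in both groups of samples, ordered by exonic, protein, 5′UTR and 3′UTR length (x axes, range of each group). The number above a bar counts the genes, and the longest groups held 69, 57, 64 and 58 of them.

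At the long end, 11 of the 150 genes encode more than 1000 residues, 7.38% against 1.13% of the other eligible CG genes and 10.6% of all genes tested. The longest protein belongs to Svil with 4526 residues, followed by CG30460 with 1868, CG13991 with 1767 and CG32436 with 1737. The length of Svil is that of the present-day gene, which is listed under CG33232 and CG13800 as well as CG42669. CG13991 is unusual in that its long protein is annotated in a single exon, and it had 132 FPKM in the βNACtes IP, against 20.1 FPKM in total ribosomes. These 11 genes had a median of 267 FPKM in the βNACtes IP, against 31.5 FPKM in total ribosomes. At the short end, 13 genes encode fewer than 100 residues, 8.72% against 9.98% of the other eligible CG genes and 5.02% of all genes tested. Small proteins were thus about as frequent as among the other eligible CG genes and more frequent than among all genes tested. The 13 genes had a median of 476 FPKM in the βNACtes IP, against 48.1 FPKM in total ribosomes. The shortest is that of CG32267 with 49 residues, whose mRNA had 137 FPKM in the βNACtes IP, against 23.8 FPKM in total ribosomes. CG43439 with 56 residues had 755 FPKM in the βNACtes IP, against 149.7 FPKM in total ribosomes, and CG33704 with 63 residues had 185 FPKM in the βNACtes IP, against 37.5 FPKM in total ribosomes.

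Genes with a single exon in the canonical transcript made up 27.5% of the annotated genes among the 150, against 28.7% of the other eligible CG genes. The median number of exons was 2 in both. CG33992 and CG43755, which stand under the same identifier, are both counted as single-exon genes, although more than this transcript is annotated. In the newer part of the numbering, 32.0% of the 150 genes had a CG number of 30000 or above, against 24.1%. A 5′UTR of 200 bp or more was annotated for 31.5%, against 17.5% of the other eligible CG genes and 31.6% of all genes tested. A 3′UTR of 500 bp or more was annotated for 14.8%, against 8.62% of the other eligible CG genes and 21.5% of all genes tested. The longest 5′UTR was 2898 bp in CG15086, now CG44435, which lies wholly within exons of CG44434. CG33791 and CG9133 had 5′UTRs of 1760 and 1790 bp, and these genes too overlap another gene over nearly their whole length.

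The 150 genes lay on all large chromosome arms. Of the 149 with a position, 39 were on 3R, 37 on 3L, 30 on 2L, 27 on 2R and 16 on X. The X held 10.7%, against 12.8% of the other eligible CG genes, and 3L held 24.8%, against 19.5%. None was on chromosome 4 or Y. The median level of X-linked genes was 216 FPKM in the βNACtes IP, against 36.2 FPKM in total ribosomes. The genes on 2L had the highest median of the arms, with 324 FPKM in the βNACtes IP, against 61.0 FPKM in total ribosomes. The median relative log2 ratio per arm stayed between 1.68 and 1.83.

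In 7 places neighbours in the table were both among the 150. CG3213 and CG8851 on 2L are transcribed away from each other with 25 bp between them. CG3213 had 675 FPKM in the βNACtes IP, against 104.7 FPKM in total ribosomes, which was several times the level of CG8851 in both groups. CG18449 and CG2127 on 2R lie on the same strand 416 bp apart, and so do CG32192 and CG42393 on 3L, 994 bp apart. CG18449 had 513 FPKM in the βNACtes IP, against 87.5 FPKM in total ribosomes, and CG2127 had 1964 FPKM in the βNACtes IP, against 309 FPKM in total ribosomes. On 3L, eIF2A and CG32448 run towards each other and overlap by 83 bp at their ends. They had similar values, with 476 FPKM for CG32448 in the βNACtes IP, against 75.6 FPKM in total ribosomes. The other pairs were CG15086 with CG42855 on 2R, and on the X chromosome CG15034 with CG1999 and CG2574 with the noncoding CG32652. Genes tested that flank one of the 150 gave 219 entries, in which a gene that flanks several of the 150 is counted each time. Of these entries 32.9% were called higher and 23.7% lower, beside 26.4% and 29.2% of all genes tested. Their median relative log2 ratio was 0.34, and the difference was not tested.

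Some values are less certain because exons are shared. The exons of 37 of the 149 genes overlap another gene, 24.8% against 32.1% of the other eligible CG genes, and in 23 of them the overlapping gene is on the other strand. The overlap was under 10% of the exonic length in 23 genes and over 50% in 8. CG33791, CG30461, CG15086, CG43439 and CG34277 lie fully within exons of another gene, and CG9133, CG34310 and CG32462 with 88.7% to 95.7% of their length. For CG9133 the overlapping gene CG9130 is listed at 0 in the βNACtes IP, against 15.1 FPKM in total ribosomes. For CG30461 the overlapping ste24c had 36.0 FPKM in the βNACtes IP, against 12.7 FPKM in total ribosomes. How reads in shared exons were divided, and whether strand was used, is not given in the sources used here. The 112 genes without overlap had a median relative log2 ratio of 1.75 and the 37 with overlap 1.84. CG33992 and CG43755 stand under 1 identifier, so that the 150 genes have 149 identifiers. CG33992 had 914 FPKM in the βNACtes IP, against 128 FPKM in total ribosomes, and CG43755 had 285 FPKM in the βNACtes IP, against 46.6 FPKM in total ribosomes.

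The labelled tissue was checked with marker lists, none of which contains any of the 150 genes, and the calls are read beside 26.4% higher and 29.2% lower over all genes tested, or 62.1% and 8.75% in TPM. The ratios in TPM are not centred on the median and are higher for every gene than the relative ratios. A turn in sign in TPM follows from this shift, and nothing is read from it. Of 24 germline and spermatocyte markers listed, 8 were called higher and 4 lower, with a median relative log2 ratio of 0.03 and none at 0. Their summed level was 21423 FPKM in the βNACtes IP, against 10238 FPKM in total ribosomes. A large part of this gap lies in Mst84Da, with 8935 FPKM in the βNACtes IP, against 1704 FPKM in total ribosomes. In TPM 18 of the 24 markers were higher and 1 lower, and 10 turned in sign. All 11 accessory gland genes listed were called lower, with a summed level of 25872 FPKM in the βNACtes IP, against 98095 FPKM in total ribosomes, and none at 0. In TPM only 3 of these 11 were called lower, with a median log2 ratio of −0.65, and Acp36DE and Acp76A turned in sign. Of 12 muscle genes tested 3 were higher and 2 lower, with 538 FPKM summed over 13 in the βNACtes IP, against 351 FPKM in total ribosomes, none at 0. In TPM 7 of the 12 were higher and 0 lower, and 5 turned in sign. Of 6 hub and cyst cell genes tested 4 were higher and 1 lower, with 45.0 FPKM summed over 7 in the βNACtes IP, against 12.9 FPKM in total ribosomes, where tj is listed at 0. In TPM 5 of the 6 were higher and 0 lower, and Fas3 and hh turned in sign. Accessory gland transcripts were thus present in both groups at high levels, and their part in the ratios was not tested. As the rule chose the 150 genes by the same ratio, the ratios of the marker lists are not set against theirs.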

How the data were processed

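RNA associated with ribosomes from testes was sequenced by the authors in 5 libraries, 3 from the βNACtes IP and 2 from total ribosomes. The authors deposited 1 table with 1 value per gene and group. It names no unit. The deposited values are treated as FPKM because value times exonic length in kilobases sums to 1102852 for the IP and 1100027 for total ribosomes, while plain sums are 802728 and 1435535. Another column with the authors' own log2 ratio of their comparison was not used. The submitters' processing notes name Bowtie, Bowtie2, TopHat, TopHat2 2.0.14, Cufflinks 2.2.1 and the build dm3. The table holds no coordinates. Lengths and positions were taken by FlyBase identifier from Ensembl release 115 of BDGP6, and they are not dm3 coordinates. Without a match by identifier were 136 identifiers.

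The log2 ratio is the difference of log2(FPKM + 0.1) between the IP and total ribosomes, which understates changes of low genes, and was centred on the median of 9793 genes with a mean of at least 1 FPKM. A gene was called higher or lower at a relative log2 ratio of 1 or −1. No count test, interval or replicate error could be had from 1 value per group, and the depth is unknown. The labels do not say whether the libraries of a group came from separate extracts, so they may be technical replicates. The members and lists were chosen with earlier results of these data known. Named are the 15 genes with the highest ratio, the 10 with the highest IP value, 3 on each side of the limit, those with the longest and shortest proteins, neighbours, and those with a current symbol, and other genes were chosen after their values were seen. Similarity between proteins was to be part of this rule but was not analysed here, as no protein sequences were used. Of the families compared, 1 further gene was left out of the tables and is not reported here. The computation was tested on simulated data. Alternatives were another pseudocount, other scalings, other filters, lists of 100 and 200 genes, limits of 10 and 50 FPKM and genes without overlap. Computations ran in Python 3.11.15 (pandas 2.3.3, numpy 2.4.6), and matplotlib 3.10.9 drew the plots.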

Additional observations from a re-analysis of the deposited data

How the results depend on the processing

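The median log2 ratio of the 150 genes, 1.76 relative to all genes tested, was 2.49 with the values as deposited and without centring, and 3.33 with the columns scaled to TPM. This follows from the construction, since the median of all genes is not subtracted there. Under a pseudocount of 1, upper-quartile scaling, no filter and a mean of at least 10 FPKM it was between 1.63 and 2.00. All 150 genes were past the limit under each of these settings, as the choice of genes fixes, beside 21.8% to 62.1% of all genes. Which genes belong to the list depended on the minimum level, with 88 of 150 shared when both values had to reach 10 FPKM and 60 of 150 at 50 FPKM, whereas a pseudocount of 1 shared 148. Over lists of 100 and 200 genes, both minimum levels, that pseudocount and genes without overlap, the median exonic length was 1312 to 1893 bp, the median protein length 294 to 372 residues, the share on X 7.38% to 14.8%, the share with a CG number as current symbol 83.0% to 88.6% and the median number of exons 2 to 3. The planned shares of lysine and arginine and of promoters with a core motif were not run, because protein and promoter sequences were not used here. No paired analysis was possible because the table holds 1 value per group, and for the same reason no library could be left out. A single value per group gives neither a spread nor a depth, so no ratio here can be set against the variation between libraries.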
